A study of Mus musculus with 12 samples.

Results

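The mouse miRNAs mmu-miR-1895, mmu-miR-1190, mmu-miR-1899 and mmu-miR-1954, 4 of the 710 on the array, lay higher on each array of the wild-type (WT) mice than on any array of the Tff2 knock-out (Tff2-KO) mice. They were chosen by this pattern in the quantile normalized intensities, so their genotype differences are given as a description with standard errors and without a test. Blood was taken from 6 Tff2-KO and 6 WT mice of the 129/SV strain, 3 males and 3 females of each genotype, kept in the same facility with no treatment and with ages not given in the sources used here. The knock-out mice are deficient in the trefoil peptide gene Tff2 and came from an existing line. The WT mice came from a breeder, and origin and genotype cannot be told apart. RNA of the pelleted blood cells of each mouse was hybridized to 1 array with 7 spots per miRNA. The array has no mRNA probes, so Tff2 itself could not be checked. Blood is a mixture, and fewer cells of a type and less RNA per cell cannot be told apart in it.

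A miRNA is cut from a hairpin of a longer transcript and is loaded into an Argonaute protein. It pairs through its seed, a stretch close to its 5′ end, with sites in messenger RNAs, which are then translated less or degraded. miRNAs that share a seed can bind the same sites, and miRNAs that lie within a protein-coding gene on its strand can be made from the transcript of that gene.

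The mature sequences are shown because the seeds determine which sites each miRNA can pair with. They are RefSeq sequences (GRCm38.p6), given 5′ to 3′ with bases 2 to 8, the seed, in capitals.
mmu-miR-1895: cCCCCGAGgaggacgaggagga
mmu-miR-1190: uCAGCUGAgguuccccucuguc
mmu-miR-1899: aGCGAUGGccgaaucugcuucc
mmu-miR-1954: aCUGCAGAgugagacccuguu
The 4 seeds differed from each other. The seed of miR-1954 was shared with 1 other RefSeq mature miRNA, miR-12201-3p, which has no row of that name on the array. The other 3 seeds were shared with none. miR-1895 has 10 G and 0 U and a GC content of 72.7%, which is higher than that of 96.7% of 1674 mature mouse miRNAs. The GC content was 59.1% for both miR-1190 and miR-1899 and 52.4% for miR-1954, which lies near the median of 52.2%. Over 194 other array miRNAs with a RefSeq entry of the same name, GC content and genotype difference had a Pearson correlation of 0.07, across miRNAs that are not independent replicates.

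The hairpins of miR-1895 and miR-1899 are shown because they stand farthest apart among the 4 in predicted folding energy per base. The mature miRNA is in capitals.
hairpin of mmu-miR-1895: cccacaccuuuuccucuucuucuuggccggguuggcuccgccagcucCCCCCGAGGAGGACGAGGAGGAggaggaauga
hairpin of mmu-miR-1899: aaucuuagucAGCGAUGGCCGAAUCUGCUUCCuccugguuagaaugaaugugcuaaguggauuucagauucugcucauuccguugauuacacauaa
The predicted minimum free energy was -42.6 kcal/mol for the 79 bases of the miR-1895 hairpin and -28.2 kcal/mol for the 96 bases of the miR-1899 hairpin. Per base this is -0.54 and -0.29 kcal/mol, and 90.2% and 9.95% of 1005 mouse hairpins were less stable, respectively. The miR-1190 hairpin had -0.40 and the miR-1954 hairpin -0.48 kcal/mol per base, against a median of -0.41 over those hairpins. The mature miRNA lies in the 3′ arm in miR-1895 and miR-1190 and in the 5′ arm in miR-1899 and miR-1954.

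The 4 genes lie on 4 different chromosomes, none of which is chromosome 17, where Tff2 lies. Mature miR-1895 is at chr3:134240515-134240536 on the minus strand, within Cxxc4, which lies on the plus strand and encodes an inhibitor of Wnt signaling. Mature miR-1190 is at chr12:101021692-101021713 on the minus strand, within Ccdc88c, which encodes a protein that binds Dishevelled. The long non-coding RNA gene Gm36756 lies 6855 bases from its hairpin. Mature miR-1954 is at chr2:32652342-32652362 on the plus strand, within Eng on the same strand, which encodes endoglin, a co-receptor for TGF-beta ligands on endothelial cells. Mature miR-1899 is at chr9:8246796-8246817 on the plus strand and in no annotated gene, and the pseudogene 1700128F08Rik ends 4799 bases before its hairpin. Whether the hairpins lie in exons or introns was not examined here.

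The authors' raw table gives for each miRNA the median of its spots after background subtraction, with no normalization between arrays. Averaged over its miRNAs, a Tff2-KO array had a raw intensity between 543 and 1151 and a WT array one between 375 and 999.98. An array yields intensities and no counts. Precision is limited by how many arrays there are and, for dim miRNAs, by how far their signal lies above background. The red cell miRNAs miR-486 and miR-16 had median normalized intensities of 40625 and 24873, but miR-451 and miR-144, also of red cells, had 1703 and 782. The myeloid miR-223 was at 1377 and the lymphoid miR-150 at 1297. The liver miRNA miR-122 spread on the raw scale from 112 to 4833 among Tff2-KO and from 52 to 7646 among WT mice. No marker of blood cells or other tissues passed between genotypes in limma (adjusted p from 0.507 to 0.994), but neither did any other of the 710 miRNAs.

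miR-1895 was the brightest of the 4, and under quantile normalization it had the largest genotype difference of them. On the raw scale its intensity was 1104.5 at the lowest, 2199 at the median and 3481 at the highest in Tff2-KO mice, and 2465, 3547 and 8482 in WT mice. The genotypes overlapped on this scale, as WT replicates 1, 2 and 5 (2465, 2753 and 3089) lay below Tff2-KO replicate 5 (3481) and WT replicate 1 also below Tff2-KO replicate 6 (2601). Those 3 WT arrays also had the lowest mean raw intensities of their group, 465, 375 and 455. After quantile normalization the values were 969, 1902 and 3121 in Tff2-KO and 3573, 5482 and 6422 in WT mice. The genotypes no longer overlapped, and Tff2-KO replicates 5 and 6, both at 3121, came closest to WT replicate 4. The geometric mean was 1820.3 in Tff2-KO and 5125 in WT mice, a log2 difference of -1.49 (limma standard error 0.33, n = 6 mice per genotype), or 2.82-fold higher in WT. This value depended on the scaling. It was -0.94 without normalization, -0.80 with each array scaled to its median and -0.97 with each scaled to its 75th percentile, each smaller than the difference of miR-1190 (-1.28, -1.14 and -1.31) and of miR-1899 (-1.22, -1.07 and -1.25) under the same scaling. The Tff2-KO mice spread more widely, with an SD of 0.76 against 0.33 in WT on the log2 scale.

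miR-1190 was the member whose genotypes were closest to overlapping. Its raw intensity was 64 at the lowest, 114 at the median and 188 at the highest in Tff2-KO mice, and 152, 284 and 488 in WT mice. WT replicates 1 and 5 (152 and 180) lay below Tff2-KO replicate 1 (188), and replicate 1 of WT also lay below Tff2-KO replicate 2 (156). The normalized values were 69.7, 132 and 175 in Tff2-KO and 180.3, 289 and 350.0 in WT mice. Only 5 intensity units lay between Tff2-KO replicate 6 and WT replicate 1, whereas the other WT mice were at 248 or more. The log2 difference was -1.23 (limma standard error 0.27, n = 6 per genotype) and the geometric mean 118 in Tff2-KO and 276 in WT mice, or 2.35-fold higher in WT. With normexp background correction the log2 difference was smaller, at -0.85.

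miR-1899 was the dimmest of the 4. Its raw intensity was 24 at the lowest, 66 at the median and 112 at the highest in Tff2-KO mice, and 84, 138 and 184 in WT mice. WT replicate 5 (84) lay below Tff2-KO replicate 1 (112), and WT replicate 3 had the same raw value as that mouse. On Tff2-KO replicates 2 and 6 the raw value (72 and 24) was no larger in size than the most negative value found there after background subtraction (-88 and -32), so the low end of this group was not clearly above background. None of the other members had such a value on any array. The normalized values of miR-1899 were 34.7, 72.6 and 86.7 in Tff2-KO and 103, 125 and 176 in WT mice, and did not overlap. The geometric mean was 62.9 and 132, a log2 difference of -1.07 (limma standard error 0.26, n = 6 per genotype), with the low Tff2-KO values as deposited. With normexp background correction the difference was -0.57, so no fold is given.

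miR-1954 had the smallest difference and also the smallest spread in Tff2-KO mice. Its raw intensity was 104 at the lowest, 156 at the median and 232 at the highest in Tff2-KO mice, and 196, 276 and 336 in WT mice. WT replicates 1 and 5 (196 and 224) lay below Tff2-KO replicate 1 (232). The normalized values were 126, 159 and 200.0 in Tff2-KO and 228, 274 and 395 in WT mice. Tff2-KO replicate 3 was the highest of its genotype and WT replicate 6 the lowest of its own. The log2 difference was -0.84 (limma standard error 0.19, n = 6 per genotype), with geometric means of 161 and 288, or 1.79-fold higher in WT. It was smaller with normexp background correction (-0.62) and with median scaling (-0.64). The SD was 0.28 in Tff2-KO and 0.29 in WT mice on the log2 scale.

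**Figure D1:**
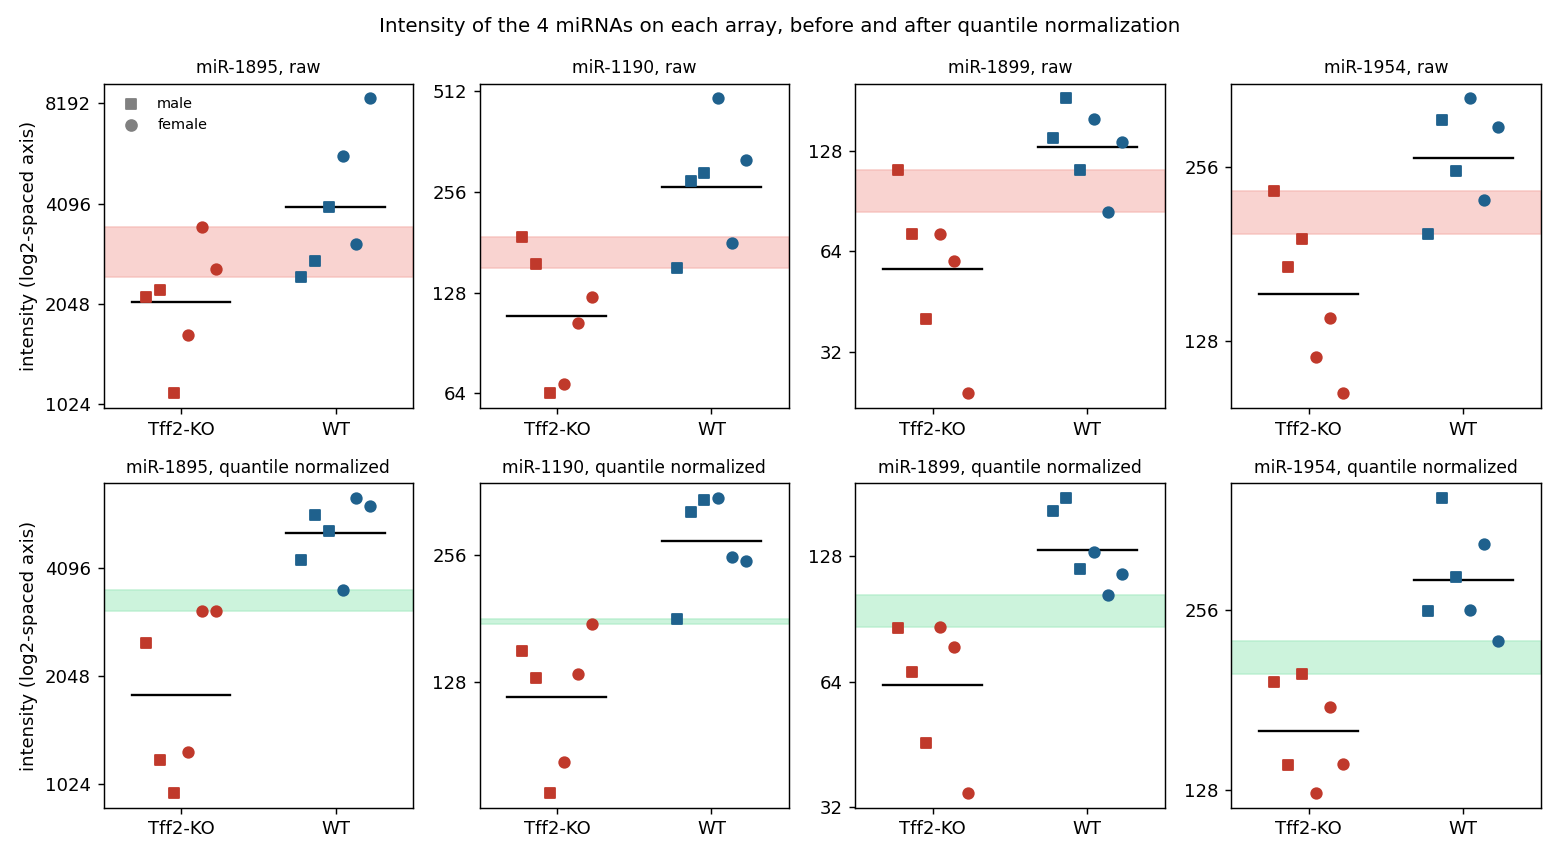
Intensity of each miRNA on the 12 arrays on a log2-spaced axis, raw and after quantile normalization, with 1 point per mouse, the shape giving the sex and the black line the geometric mean of the genotype. The shaded band, red where the genotypes overlap and green where they do not, turns from red to green in the 4 miRNAs.

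Raw intensities did not separate the genotypes for any of the 4. Of the 36 pairs of a WT and a Tff2-KO array, the WT array was higher in 32 for miR-1895, in 33 for miR-1190, in 34.5 for miR-1899 (a tie counted as 0.5) and in 34 for miR-1954. Raw values of miR-712* separated the genotypes in the direction of WT, the 1 such miRNA among the 710 (0.141%). After quantile normalization 5 of 710 miRNAs (0.704%) did so. These were the 4 members, which the rule chose for it, and miR-201. miR-201 had its highest Tff2-KO value at 112 and its lowest WT value at 118, and a log2 difference of -0.74 (limma standard error 0.20). Just outside the rule, with 35 of 36 pairs, were miR-712* (highest Tff2-KO value 331, lowest WT value 302) and miR-719 (191 and 173). In the other direction 3 miRNAs had all Tff2-KO arrays above all WT arrays.

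The gap, the lowest WT minus the highest Tff2-KO value on the log2 scale, was 0.25 for miR-1899, 0.19 for miR-1895, 0.19 for miR-1954 and 0.04 for miR-1190. These gaps were smaller than the SD over mice of each of the 4 in either genotype. Each gap widened by more than 1.5 times without 1 WT mouse. It was 0.51 for miR-1190 without WT replicate 1, 0.48 for miR-1895 without WT replicate 4, 0.42 for miR-1899 without WT replicate 5 and 0.34 for miR-1954 without WT replicate 6. The gap of miR-1190 also widened, to 0.25, without Tff2-KO replicate 6. Since the members were chosen for the gap, its presence without single mice is no sign of stability.

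The gap turned with the scaling of the arrays. The genotypes of the 4 did not overlap under quantile normalization, in the authors' normalized table, under cyclic loess, after normexp background correction or with a pseudocount of 16. The authors' table and the normexp and pseudocount runs are also quantile normalized and keep the order of miRNAs within each array. Their lack of overlap was thus fixed by the choice of the members. With each array scaled to its 75th percentile, the gap of miR-1895 was -0.62, an overlap, and the other 3 stayed apart, with 4 of 710 miRNAs (0.563%) separated in this direction. With each array scaled to its median, the gap was -0.95 for miR-1895, -0.06 for miR-1190 and -0.03 for miR-1954, and only miR-1899 of the 4 stayed apart, with 2 of 710 (0.282%) separated. Without normalization it was -0.50 for miR-1895, -0.31 for miR-1190, -0.42 for miR-1899 and -0.24 for miR-1954. The genotype difference itself kept its direction under each of these scalings, which the choice of the members fixed wherever quantile normalization was used.

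**Figure D2:**
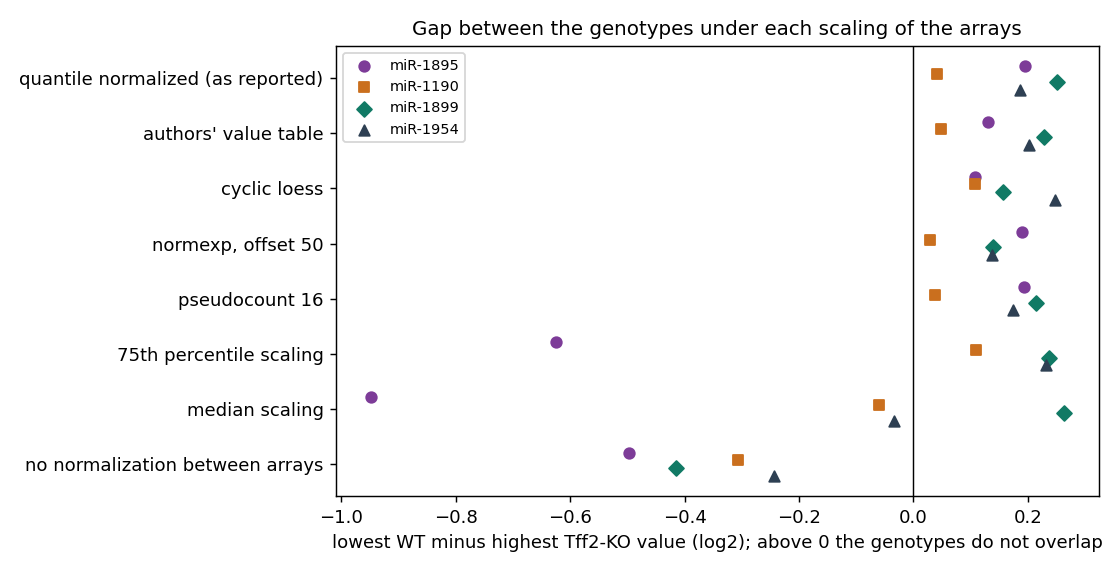
Lowest WT minus highest Tff2-KO value (log2) of each miRNA under 8 ways of processing the arrays, with 1 symbol per miRNA and a vertical line at 0. The authors' table, normexp and pseudocount rows are also quantile normalized and repeat the order that chose the members. Points right of the line have no overlap of the genotypes, and miR-1895 lies farthest to the left, at -0.95 under median scaling.

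Quantile normalization gives each miRNA a value by its place within its own array, so these places are the same measure that chose the members. Ranked from the brightest of 710, miR-1895 was in places 18 to 28 in WT and 30 to 66 in Tff2-KO mice. miR-1954 was in places 103 to 158.5 in WT and 178.5 to 284 in Tff2-KO mice. miR-1190 was in places 112.5 to 197.5 in WT and 203 to 457.5 in Tff2-KO mice. miR-1899 was in places 202 to 342.5 in WT and 393 to 594 in Tff2-KO mice. The order of the 4 by level was thus miR-1895, then miR-1954 and miR-1190, whose places overlapped in both genotypes, then miR-1899. Levels of different miRNAs on an array also depend on their probes, so this order is one of signal.

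Among all 710 miRNAs, 352 had a lower and 358 a higher mean in Tff2-KO than in WT mice, and the median log2 difference was 0.01 with a median standard error of 0.32. The members had a median of -1.15 and lay in places 13 (miR-1895), 22 (miR-1190), 27 (miR-1899) and 47 (miR-1954) when ordered from the most negative difference. By the mean over the 12 arrays the 4 belonged to the brighter 355 miRNAs, but miR-1899 lay below the median of its array in each Tff2-KO mouse and came among them through the WT mice. Each other miRNA with a more negative difference than miR-1954 overlapped between the genotypes, which follows from how the members were chosen. Besides them only miR-201, with a difference of -0.74, was separated in this direction.

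**Figure D3:**
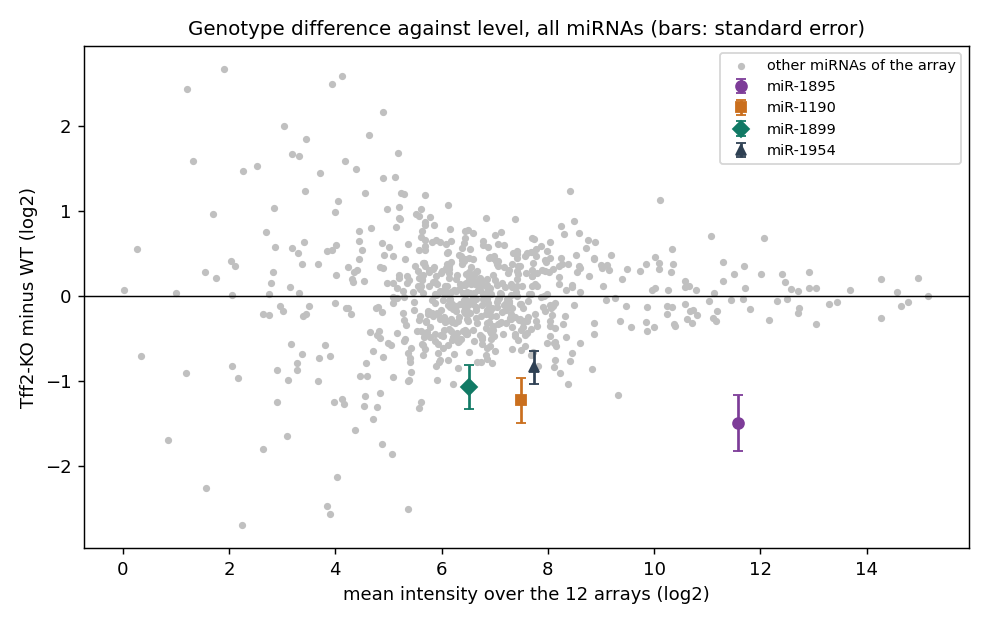
Log2 difference of Tff2-KO minus WT against mean log2 intensity over the 12 arrays, with 1 grey point per miRNA and the 4 miRNAs in colour with bars of 1 standard error. The coloured points lie between -1.49 and -0.84, and many dim miRNAs to their left spread more widely in both directions.

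miR-1895, miR-1899 and miR-1954 are among the 73 array miRNAs named from miR-1892 to miR-1983, which entered the miRNA catalogue late. Of the other 70 miRNAs in that range, 38 were lower and 32 higher in the Tff2-KO group and the median log2 difference was -0.05 against 0.02 over the 706 non-members. None passed in limma (smallest adjusted p 0.335), and none of all 710 miRNAs did (0%). An unadjusted p under 0.05 was found for 6 of the 70, 4 lower and 2 higher, and for 67 of the 710 (9.44%), 40 lower and 27 higher. The share among those 70 was thus not above that of the 710. The 67 include the members, which were chosen on this contrast, and the 70 leave them out, so the sets are not alike.

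Sex was not used to choose the members and could be tested. The intervals are 95% confidence intervals of limma, with p-values adjusted over 710 miRNAs. miR-1895 was 0.36 higher in females than in males on the log2 scale (interval -0.36 to 1.09, adjusted p = 0.808). Its difference was larger with median scaling (0.88), 75th percentile scaling (0.77) and no normalization (0.66), none of which passed (adjusted p = 0.488, 0.546 and 0.566 in limma). miR-1190 was 0.10 higher (-0.51 to 0.71, adjusted p = 0.922). miR-1899 had a difference of -0.22 (-0.80 to 0.36, adjusted p = 0.808) and miR-1954 one of -0.23 (-0.65 to 0.18, adjusted p = 0.772). None of the 4 passed, and each interval leaves room for a sex difference in either direction. Over all miRNAs limma called 0 of 710 (0%) between the sexes, with 56 at an unadjusted p under 0.05.

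The values of the 4 were lower in Tff2-KO mice in both sexes, which their choice fixed. miR-1895 had a geometric mean of 1436 in male and 2308 in female Tff2-KO mice, and of 5055 and 5196 in the WT mice (n = 3 each). With the sexes normalized and fitted separately, the log2 genotype difference was -1.78 in males and -1.18 in females for miR-1895, -1.20 and -0.94 for miR-1899, and -0.76 and -0.93 for miR-1954. For miR-1190 it was -1.24 in either sex. In the fit with an interaction, the difference of females minus that of males was 0.65 for miR-1895 (interval -0.81 to 2.10, adjusted p = 0.682 in limma) and 0.32 for miR-1899 (-0.89 to 1.52, adjusted p = 0.847). It was 0.12 for miR-1190 (-1.16 to 1.40) and -0.06 for miR-1954 (-0.93 to 0.80), both with an adjusted p of 0.965 in limma. No member passed. Over all miRNAs 1 of 710 (0.141%) was called, with 71 at an unadjusted p under 0.05. This was miR-26b*, whose raw values of -32 to 16 did not exceed in size the most negative value of their array in any mouse.

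Within a genotype, no correlation between members passed a test. The 6 pairs of members were correlated over the 6 mice of each genotype, which gave 12 Pearson correlations of normalized log2 intensities, 5 of them above 0. They ranged from -0.10 to 0.82 (median -0.02) in Tff2-KO and between -0.34 and 0.40 (median 0.10) among WT mice. None passed a two-sided exact permutation test after Benjamini-Hochberg adjustment over the 12 (smallest adjusted p 0.5 for r and 0.533 for rho), and 1 had an unadjusted p under 0.05.

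That pair was miR-1895 and miR-1190 in Tff2-KO mice, with r = 0.82 (two-sided exact permutation p = 0.0417) and rho = 0.84 (exact p = 0.0444). Without replicates 3 and 6, 2 mice far from the median of miR-1895, r was 0.61. Replicates 5 and 6 had the same value of miR-1895, so leaving out replicate 6 and not replicate 5 was arbitrary. Tff2-KO replicates 3 and 4 were low in both miRNAs, at -0.91 and -0.53 from the genotype mean of miR-1895 and at -0.76 and -0.51 from that of miR-1190. Replicate 6 was high in both, at 0.78 and 0.57. In WT mice the same pair had r = -0.09 (two-sided exact permutation p = 0.843) and rho = -0.37 (exact p = 0.497), and whether the genotypes differ in this was not tested.

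Single mice also went opposite ways. Tff2-KO replicate 3 was the lowest of its genotype in miR-1895 and miR-1190 and the highest in miR-1954. Tff2-KO replicate 6 was joint highest in miR-1895, highest in miR-1190 and lowest in miR-1899. WT replicate 4 was lowest in miR-1895 and highest in miR-1190, and WT replicate 2 was highest in both miR-1899 and miR-1954.

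**Figure D4:**
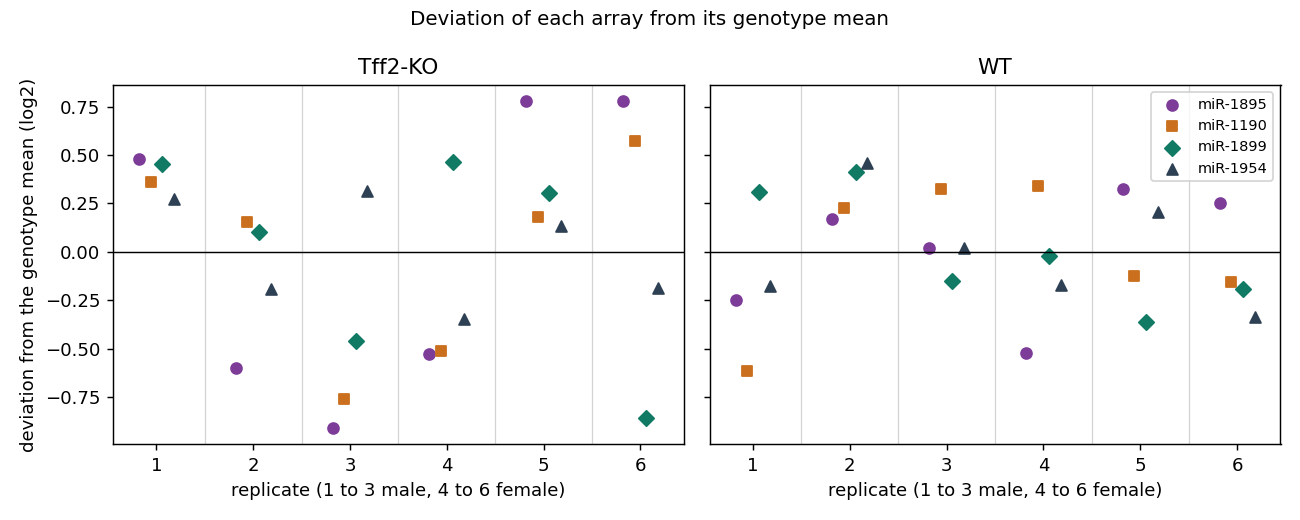
Deviation of each mouse from the mean of its genotype on the log2 scale for the 4 miRNAs, with replicates 1 to 3 male and 4 to 6 female. Tff2-KO replicate 3 has miR-1895 at -0.91 and miR-1954 at 0.32, on opposite sides of the line at 0.

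The median correlation between members was higher for raw than for normalized intensities. On the log2 raw scale 5 of 6 pairs in Tff2-KO mice (median r 0.34) and 6 of 6 in WT mice (median r 0.60) were above 0. The highest was miR-1190 with miR-1954 in WT mice, at r = 0.92 (two-sided exact permutation p = 0.00694, adjusted p = 0.0833 over the 12) and rho = 0.83 (exact p = 0.0583). Without the 2 farthest mice r was 0.79. The same pair had r = 0.35 (two-sided exact permutation p = 0.49) and rho = 0.43 (exact p = 0.419) after quantile normalization.

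The members were also set against the mean raw intensity of the array, in 16 relations. The raw value of miR-1895 in WT mice had r = 0.91 with it (two-sided exact permutation p = 0.0208, adjusted p = 0.333 over the 16) and rho = 0.77 (exact p = 0.103). Without the 2 farthest arrays r was 0.60. After normalization the same relation had r = -0.40 (exact p = 0.436) and rho = -0.49 (exact p = 0.356). None of the 16 passed after adjustment. The part of array brightness in the genotype differences was not tested.

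The miRNAs most like each member were sought by the Pearson correlation of log2 intensities over the 12 arrays, with the genotype means removed, among 351 other miRNAs brighter than the array-wide median. These correlations are a description, and the arrays share their normalization. For miR-1895 they were miR-196a* (r = 0.87), miR-20b* (0.86) and miR-715 (0.85). Of these miR-715 was lower in Tff2-KO mice by the largest amount, with geometric means of 425 and 951 and a log2 difference of -1.16 (standard error 0.29, adjusted p = 0.222 in limma), which did not pass. It did pass with normexp (adjusted p = 0.0336 in limma) and among the brighter miRNAs alone (adjusted p = 0.0322). Both adjustments included the members, which were chosen on this contrast and were among the miRNAs called in these runs. These passes are thus not independent of that choice, and an adjustment without the members was not made.

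For miR-1954 the nearest miRNAs were miR-1949 (r = 0.89), miR-1946b (0.79) and miR-449c (0.77). miR-1949 went with miR-1954 to a like extent in Tff2-KO (r = 0.90) and WT mice (r = 0.91), but its own genotype difference was -0.14 (standard error 0.21, adjusted p = 0.834 in limma), against -0.84 for miR-1954. miR-1946b had a difference of -0.84 (standard error 0.26, adjusted p = 0.335 in limma), which did not pass either.

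For miR-1190 the nearest were miR-15a (r = 0.80), miR-1931 (0.76) and miR-21 (0.67), and for miR-1899 they were miR-362-3p (0.70), miR-16 (0.67) and miR-466d-3p (0.64). miR-16 had r = 0.96 with miR-1899 in WT and 0.57 in Tff2-KO mice, while its own genotype difference was -0.07 (standard error 0.19, adjusted p = 0.912 in limma). The other red cell miRNAs named above, miR-486, miR-451 and miR-144, were not among the 3 nearest of miR-1899. Among the members themselves the highest value on this measure was 0.59, between miR-1895 and miR-1190, and the other 5 pairs lay between -0.11 and 0.18. No member was among the 3 nearest of another.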

How the data were processed

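RNA of blood cells of 12 mice was measured on miRNA arrays. The authors extracted the median signal of each spot, subtracted the background, took the median over the 7 spots and deposited these linear intensities without normalization between arrays. Their second table holds deposited intensities after quantile normalization, used here as an alternative. Quantile normalization of the raw table over the 12 arrays and the fits (lmFit, eBayes) were run in limma 3.58.1 under R 4.3.3 on log2 values of all 710 miRNAs, with a floor of 1 before the log2. A Benjamini-Hochberg adjusted p under 0.05 was the threshold. The members and lists were chosen with earlier results of these data known, so members were not tested between genotypes. Also named are other separated miRNAs, those with 35 of 36 pairs, the 3 most correlated with each member, miRNAs sharing a seed, and genes within 10 kb. Genotypes share replicate numbers, but same-numbered mice had residual correlations from -0.17 to 0.11 and were not taken as pairs. Correlations used exact permutations (scipy 1.17.1) and hairpins RNAfold 2.7.2. Alternatives changed scaling, background correction, pseudocount, tested miRNAs, covariates and mice. The fit was tested on simulated data.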

Additional observations from a re-analysis of the deposited data

How the results depend on the processing

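The genotype difference of each member kept its direction under each alternative run. In the runs with quantile normalization, also those with fewer mice, the choice of the members fixed this direction, so it is no sign of stability. The difference was smallest for miR-1895 with median scaling (-0.80). For miR-1190 (-0.85), miR-1899 (-0.57) and miR-1954 (-0.62) it was smallest with normexp. With 1 mouse left out it ranged from -1.65 to -1.34 for miR-1895, -1.37 to -1.07 for miR-1190, -1.18 to -0.90 for miR-1899 and -0.91 to -0.76 for miR-1954. Scaling to the 75th percentile moved the median difference of all miRNAs from 0.01 to -0.12. The replicate block is balanced over the genotypes and by its construction cannot move the members' differences (-1.49, -1.23, -1.07 and -0.84). Of the arrays, 1 of 12 correlated best with its own number.

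The gap became an overlap without normalization for miR-1895 (-0.50), miR-1190 (-0.31), miR-1899 (-0.42) and miR-1954 (-0.24), with median scaling for miR-1895 (-0.95), miR-1190 (-0.060) and miR-1954 (-0.034), and with the 75th percentile for miR-1895 (-0.62). For miR-1190 it was 0.57 in females only and 0.038 to 0.51 with 1 mouse left out.

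The interaction with sex reversed for miR-1895 (-0.32) and miR-1899 (-0.33) without normalization, and for miR-1190 without normalization (-0.77), with cyclic loess (-0.15), median scaling (-0.20) and 75th percentile scaling (-0.15). With 1 mouse left out it ranged from -0.22 to 0.42 for miR-1190, from 0.34 to 1.09 for miR-1895, from 0.063 to 0.73 for miR-1899 and from -0.25 to 0.092 for miR-1954, and the sex difference from -0.056 to 0.22 for miR-1190, 0.20 to 0.53 for miR-1895, -0.35 to -0.057 for miR-1899 and -0.31 to -0.16 for miR-1954. The lowest interaction of miR-1895 and miR-1899 came without Tff2-KO replicate 3, and the highest without Tff2-KO replicates 4 and 6. Scaling moved the sex difference of miR-1954 to between -0.26 and -0.040 and its interaction to -0.90 without normalization. None of these passed the threshold. The count of miRNAs called for the interaction fell from 1 to 0 in the authors' table, without normalization, with loess, median and 75th percentile scaling, with a pseudocount of 16 and with the replicate block. It was 2 with normexp and with brighter miRNAs only, 3 with a robust trend, and 0 to 2 with 1 mouse left out. The count for sex rose from 0 to 3 in Tff2-KO mice alone and to 1 in WT mice alone. Of the non-members, 2 (miR-715 and miR-712*) were called between genotypes with normexp and with brighter miRNAs only. These runs called 4 and 6 miRNAs, and the remaining calls were members, which were chosen on this contrast and counted in the adjustment. The calls of miR-715 and miR-712* are thus not independent of that choice. In males alone 2 were called (miR-129-5p and miR-1969) and in females alone 3 (miR-135a, miR-26b* and miR-1903), each no larger than the size of the most negative array value on 9 or more of 12 arrays. The cause of these changes was not tested. Dim signal limits miR-1899 most, with 2 arrays not above the size of the lowest value.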
